A study of Mus musculus with 32 samples.

Results

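The genes described here are 8 members of the interleukin-1 (IL-1) family system in mouse distal colon: the ligands Il1a, Il1b and Il33, the receptor antagonist Il1rn, the signalling receptor Il1r1, its accessory chain Il1rap, the decoy receptor Il1r2 and the IL-33 receptor Il1rl1. They were found by the gene symbol of each probe set (a set of short probes to the same transcript), and each gene was represented by the probe set with the highest mean over the 32 arrays. Of the 8 genes, 7 had a probe set with their symbol alone, 14 probe sets in all among the 45101 on the array, and these 7 were part of the 18193 genes tested together. Il1rl1 was not analysed here, since no probe set carried its symbol in the annotation used.

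The study hybridised colon RNA of single mice, 1 Affymetrix array each, in 4 groups: 10 treated Myd88 knockout (KO) mice, 10 treated wild-type (WT) mice, 6 untreated KO mice and 6 untreated WT mice, all of strain C57 BL6NCr. Treated mice, aged 6 to 8 weeks, received azoxymethane (AOM), a colon carcinogen, at 10 mg/kg into the peritoneal cavity. From 1 week later their drinking water held 2% dextran sodium sulfate (DSS), an irritant of the colonic epithelium, for 3 days, and they were then killed. The labels call the state of treated mice colitis. The labels give no age or handling for the untreated mice, and no account of the cells or exons in which Myd88 is deleted.

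IL-1α and IL-1β bind the receptor Il1r1, which then recruits Il1rap, and the paired chains signal through the adaptor MyD88 to NF-κB and MAP kinases. IL-33 binds Il1rl1, which uses the same accessory chain and the same adaptor. Il1rn protein occupies Il1r1 without recruiting the accessory chain, and Il1r2 captures ligand without a signalling domain. In the gut, IL-1β is known chiefly as a product of monocytes, macrophages and neutrophils, and IL-33 as a nuclear protein of stromal and epithelial cells that is released on damage.

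Signals were comparable between arrays: the deposited array medians lay between 5.17 and 5.53 on the log2 scale, and arrays of the same group correlated at r = 0.935 to 0.985. All levels below are log2 signals after quantile normalization, differences are log2 differences with their standard errors, and signals under 10 on the linear scale had been raised to 10 in the deposited values, which is called the floor here. Myd88 itself averaged 8.00 ± 0.31 in treated KO mice and 8.46 ± 0.12 in treated WT mice (SD, n = 10 each), and 7.67 ± 0.11 in untreated KO mice and 8.40 ± 0.11 in untreated WT mice (SD, n = 6 each). It was lower in KO mice under both conditions (adjusted p = 0.00104 treated and 0.000925 untreated, limma), but treated KO mice ran from 7.50 to 8.31 and overlapped treated WT mice at 8.26 to 8.61. In KO mice it was higher after treatment by 0.33 ± 0.10 (adjusted p = 0.0225, limma). Its probe set need not lie in the deleted part, so these values do not check the deletion. Colon epithelium markers were bright in every group, with means of 11.96 to 12.33 over 12 genes in treated KO mice, 11.54 to 12.10 in treated WT mice, 11.80 to 11.99 in untreated KO mice and 11.81 to 11.97 in untreated WT mice. Markers of squamous epithelium, which lines the anal canal and not the colon, differed widely between single mice: the mean of 17 genes ran from 4.59 to 8.16 in treated KO mice and from 4.60 to 11.5 in treated WT mice, and from 4.34 to 8.28 in untreated KO mice and from 4.47 to 5.96 in untreated WT mice. Treated WT repeats 1 and 2 stood apart, at 11.5 and 9.52, so values of Il33, Il1r2, Il1a, Il1b and Il1rn are also given without them.

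After AOM and DSS, the KO colon had more Il1rn transcript than the WT colon. No other member passed the test across all genes by its representative probe set. Between treated KO and treated WT mice, 1 of the 7 measured members was called at an adjusted p under 0.05, against 12.8% of all genes. The median difference of the 7 members was 0.29, with 5 higher and 2 lower, and the median over all genes was 0. Centring each array on its median instead of quantile normalization turned the calls over all genes toward higher, with 74.6% of calls higher against 48.7%, while the values as deposited gave 41.8%. Against untreated mice of the same genotype, 1 of 7 members was called in KO mice, where 18.7% of all genes were called, and 0 of 7 in WT mice, where 1.84% were called and 1 member had an unadjusted limma p under 0.05. Between untreated KO and untreated WT mice, 0 of 7 members were called by limma, against 0.115% of all genes, and 0 had an unadjusted p under 0.05. The 4 comparisons share samples, so their values are given side by side.

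**Figure D1:**
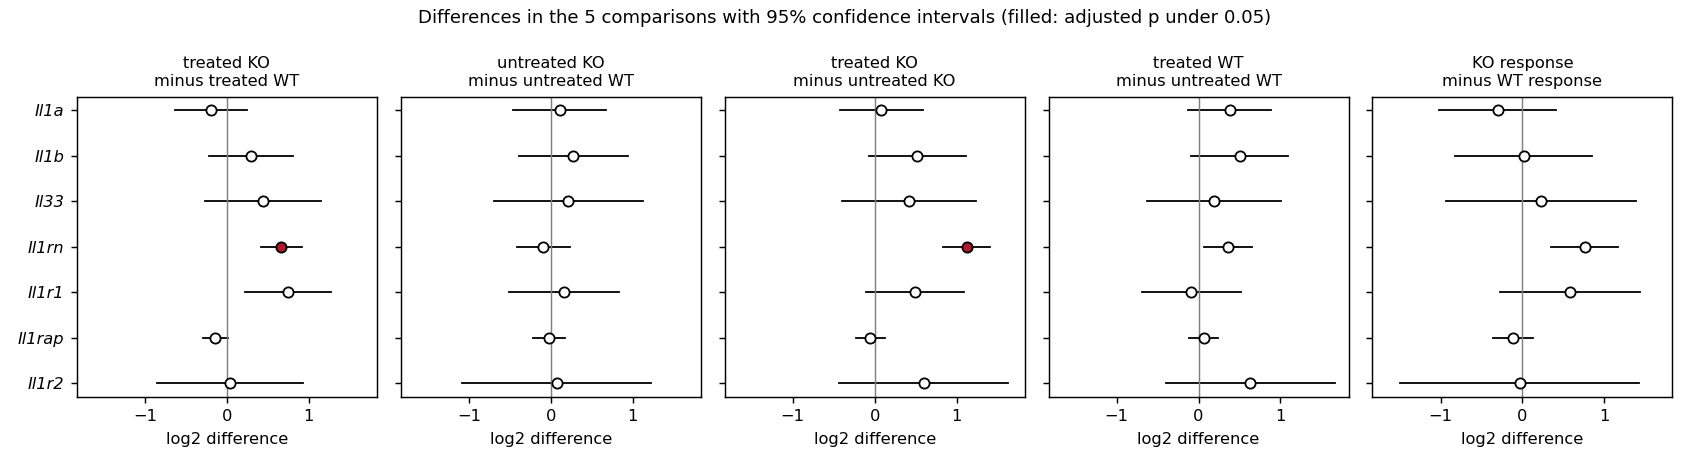
Log2 differences of the 7 measured members (points, filled where called) with 95% confidence intervals (bars) in the 5 comparisons, from the limma fit over all arrays; positive values are higher in the first group of each panel's title. Il1rn is called in the treated KO minus treated WT panel (0.67) and the treated KO minus untreated KO panel (1.12), while its intervals for treated WT minus untreated WT (0.07 to 0.65) and for the difference of responses (0.35 to 1.17), and that of Il1r1 between treated genotypes, clear 0 without a call.

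Il1rn encodes the IL-1 receptor antagonist (chr2:24336860-24351491, plus strand, GRCm38.p6) and is transcribed from more than one start. The 250 bases before each of its first 2 RefSeq starts are shown because Il1rn is the member called by its representative probe set. A stretch before the Il1b start is shown beside them as that of the ligand Il1rn competes with. The Il1b stretch is the first 225 bases of its 250-base window: the 25 bases nearest the start lie within the annotated gene and are not printed. Capitals mark matches, on either strand, to the 5 motifs searched: an NF-κB site written as GGGA, any base and TTTCC, an AP-1 site TGANTCA, a STAT site TTCNNNGAA, a PU.1 site GAGGAA and a TATA box TATAAA, where N is any base. The sequences are from RefSeq, assembly GRCm38.p6, and run 5′ to 3′ on the strand of the gene.
Il1rn first start, chr2:24336610-24336859, plus strand: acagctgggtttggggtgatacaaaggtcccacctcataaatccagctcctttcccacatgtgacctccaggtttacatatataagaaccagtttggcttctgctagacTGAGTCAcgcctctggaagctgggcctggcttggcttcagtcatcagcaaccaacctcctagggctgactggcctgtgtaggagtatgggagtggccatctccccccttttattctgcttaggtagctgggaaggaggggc
Il1rn second start, chr2:24345041-24345290, plus strand: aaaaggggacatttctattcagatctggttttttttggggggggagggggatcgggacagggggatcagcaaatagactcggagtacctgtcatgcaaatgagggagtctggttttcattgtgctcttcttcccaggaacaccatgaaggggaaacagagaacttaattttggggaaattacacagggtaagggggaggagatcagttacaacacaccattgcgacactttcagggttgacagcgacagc
Il1b, chr2:129371165-129371389, minus strand: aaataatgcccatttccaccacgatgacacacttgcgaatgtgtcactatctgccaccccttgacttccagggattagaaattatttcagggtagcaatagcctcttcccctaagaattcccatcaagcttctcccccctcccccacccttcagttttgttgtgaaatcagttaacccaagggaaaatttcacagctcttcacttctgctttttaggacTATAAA
The window of the first Il1rn start held an AP-1 match beginning 141 bases before the start, a motif found in 6.75% of all 32851 promoter windows of 250 bases. The window of the second Il1rn start matched none of the 5 motifs, and that of Il1b held a TATA box 31 bases before its start, as 12.4% of windows do. Among the other promoter windows, Il1a had an AP-1, a PU.1 (23.3% of windows) and a TATA match, Il33 a TATA match 203 bases before its first start and another 29 bases before its second start, and Il1r2 a STAT match (7.02% of windows). No member had the NF-κB letters, which 0.356% of windows hold. A match is a description of the letters and says nothing of binding.

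In treated KO mice the Il1rn signal ran from 9.19 to 10.38 with a median of 9.92, against 8.73 to 9.64 with a median of 9.19 in treated WT mice. In untreated KO mice it ran from 8.58 to 8.88 with a median of 8.73, against 8.70 to 8.90 with a median of 8.83 in untreated WT mice. Of the 10 treated KO mice, 7 lay above the highest treated WT mouse and all 10 above the highest untreated KO mouse, whereas the untreated genotypes overlapped. Treated KO mice exceeded treated WT mice by 0.67 ± 0.12, a 1.59-fold difference (adjusted p = 0.000715, limma), and untreated KO mice by 1.12 ± 0.14, a 2.18-fold difference (adjusted p = 6.73e-06, limma). The groups in the second of these did not overlap, which held for 2.04% of all genes. Treated WT mice exceeded untreated WT mice by 0.36 ± 0.14, with 8 of 10 above the highest untreated mouse, but did not pass after adjustment (p = 0.0161, adjusted p = 0.206, limma). Untreated KO mice differed from untreated WT mice by -0.09 ± 0.16 (95% interval -0.42 to 0.23, adjusted p = 0.987, limma). The response to treatment was larger in KO than in WT mice by 0.76 ± 0.20, which did not pass over all genes (p = 0.000678, adjusted p = 0.132, limma), where 0.055% of genes were called. Without treated KO repeat 9 the difference of responses was 0.83 and passed (adjusted p = 0.0294, limma). That mouse had the lowest Il1rn signal of the treated KO group, so leaving it out raises the difference by itself. Leaving out any other of the 32 mice gave no call.

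**Figure D2:**
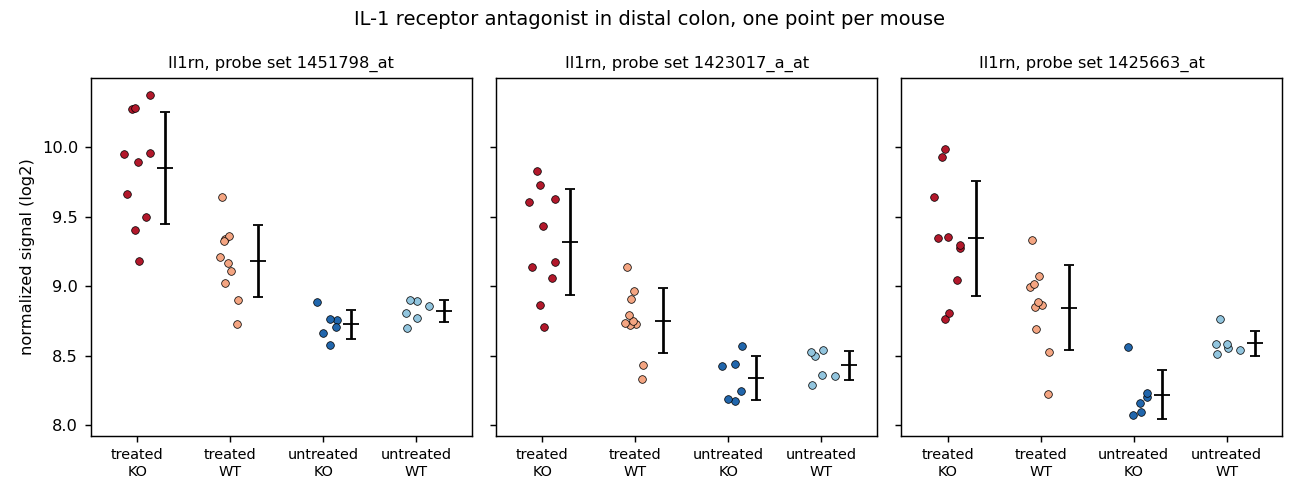
Normalized log2 signal of the 3 Il1rn probe sets, the representative one at left, in each mouse (points) with the group mean and SD (black), for treated KO, treated WT, untreated KO and untreated WT mice. In the left panel the treated KO mice sit between 9.19 and 10.38, above all untreated KO mice, and overlap only the upper treated WT mice.

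All 3 Il1rn probe sets were higher in treated KO mice. Over all probe sets tested, the 2 others exceeded treated WT mice by 0.50 ± 0.13 (adjusted p = 0.0157, limma) and 0.57 ± 0.12 (adjusted p = 0.00261, limma). Against untreated KO mice the same probe sets were higher by 1.13 ± 0.16 (adjusted p = 2.23e-05, limma) and 0.98 ± 0.14 (adjusted p = 2.42e-05, limma), with no overlap between the groups in either. Leaving out any of the 32 mice kept all 3 probe sets past the threshold in both comparisons. In untreated mice the first of these 2 probe sets had 5 of 6 untreated KO mice below the lowest untreated WT mouse, a difference of -0.37 ± 0.17 that did not pass (adjusted p = 0.696, limma). The annotation does not say which Il1rn transcript each probe set reads.

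In whole tissue, more cells of a type and more RNA per cell cannot be told apart. Macrophage and monocyte markers, 13 genes, had means of 7.26 to 9.13 in treated KO mice and 7.83 to 8.55 in treated WT mice, and of 7.50 to 7.98 in untreated KO mice and 7.51 to 8.07 in untreated WT mice, with 0 of 13 called by limma between treated genotypes (12.8% of all genes called) and 1 at an unadjusted p under 0.05, Csf1r, which was lower in treated KO mice (-0.41, adjusted p = 0.136, limma). Between treated and untreated KO mice, where 18.7% of all genes were called, 1 of 13 was higher, the lysosomal protein Cd68 (1.18, adjusted p = 0.0058, limma), and 3 of 7 endothelial markers were higher (Pecam1, Cdh5 and Tek). Also higher there were 3 of 11 mast cell, 1 of 11 neutrophil, 1 of 17 squamous, 1 of 7 T cell and 1 of 11 fibroblast and smooth muscle markers, with 0 lower. The part of these in the Il1rn difference was not tested. Neutrophil markers, 11 genes, had means of 4.19 to 5.53 in treated KO mice and 4.33 to 5.99 in treated WT mice, and of 4.22 to 4.74 in untreated KO mice and 4.25 to 5.00 in untreated WT mice. None of these lists had a gene at the floor on every array. Several neutrophil markers were often there, Camp on 28, Cxcr2 on 27, S100a9 on 12 and Ltf on 8 of 32 arrays. Fcgr3 and Ngp were at the floor on 0, so the neutrophil mean reads some of its genes poorly. After removing group means, Il1rn correlated with the mean of none of 4 marker lists over the 32 mice: r was 0.17 for macrophages, -0.16 for neutrophils, -0.13 for squamous epithelium and 0.09 for fibroblasts and smooth muscle, and rho 0.01, -0.20, -0.08 and -0.16 in that order (permutation tests, adjusted p of at least 0.654 for r and 0.5 for rho over 24 relations). Of 12 colon epithelium markers, 4 were called higher in treated KO than treated WT mice (12.8% of all genes called). In treated against untreated KO mice 6 of 12 were higher (18.7% of all genes called), with 0 lower in both. The list medians were 0.13 and 0.20. Between treated and untreated WT mice 0 of 12 were called by limma (1.84% of all genes called), with 6 means higher and 6 lower. The part of these markers in the Il1rn difference was not tested. Without treated WT repeats 1 and 2, the treated genotype difference of Il1rn was 0.60 (adjusted p = 0.00417, limma).

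No comparison of groups called Il1b (chr2:129364569-129371164), the gene of the secreted ligand of inflamed tissue, which varied most among treated KO mice. Its signal ran from 4.83 to 7.73 with a median of 5.97 in treated KO mice, against 5.26 to 6.86 with a median of 5.80 in treated WT mice. In untreated KO mice it ran from 5.26 to 6.03 with a median of 5.60, against 4.99 to 5.59 with a median of 5.35 in untreated WT mice. Treated KO repeats 3 and 7, at 7.73 and 7.17, were the highest, and the remaining treated mice of the 2 genotypes overlapped. The difference was 0.29 ± 0.25 between treated genotypes (95% interval -0.22 to 0.81, adjusted p = 0.514, limma), 0.52 ± 0.29 between treated and untreated KO mice (adjusted p = 0.226, limma) and 0.50 ± 0.29 between treated and untreated WT mice (adjusted p = 0.432, limma; 0.37 without treated WT repeats 1 and 2, adjusted p = 0.641). In treated WT mice 8 of 10 lay above the highest untreated WT mouse. Between mice of a group, Il1b followed the neutrophil marker mean (r = 0.66, rho = 0.50, adjusted permutation p = 0.00154 and 0.0335, n = 32), and r was 0.65 without the 2 mice farthest from the median. The neutrophil mean itself correlated with the squamous mean at r = 0.81, so it is not a reading of neutrophils alone. With the squamous mean Il1b had an r of 0.305 and a rho of 0.235 (adjusted permutation p = 0.158 and 0.36). The r of Il1b with the macrophage mean was 0.60 (rho 0.37, adjusted permutation p = 0.0344 and 0.167). It fell to 0.29 without 2 mice and so rests on them.

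Il33 (chr19:29925113-29960718) gave no called difference when all mice were fitted without covariates. Its signal ran from 6.50 to 8.84 with a median of 7.58 in treated KO mice, against 6.12 to 9.70 with a median of 7.03 in treated WT mice. In untreated KO mice it ran from 6.84 to 7.96 with a median of 7.06, against 6.71 to 8.00 with a median of 6.86 in untreated WT mice. Of the treated KO mice, 8 of 10 lay above the treated WT median, while the highest treated WT values, 9.70 and 8.29, belonged to repeats 1 and 2, the mice with the most squamous marker signal. The difference between treated genotypes was 0.44 ± 0.35 with all mice (adjusted p = 0.468, limma). It was 0.88 without those 2 mice (adjusted p = 0.0373, limma), and 0.90 with the squamous and skeletal muscle marker means as covariates (adjusted p = 0.0231, limma). Leaving out those 2 mice took high Il33 signals from the treated WT group alone. Treated KO repeats 3, 10 and 8 stayed in. They had the highest Il33 signals of their group (8.84, 8.65 and 8.02) and its highest squamous means (7.98, 7.51 and 8.16). The difference between treated and untreated mice was 0.42 ± 0.40 in KO mice (adjusted p = 0.527, limma) and 0.19 ± 0.40 in WT mice (adjusted p = 0.902, limma). The WT difference turned to -0.25 without treated WT repeats 1 and 2 (adjusted p = 0.809, limma) and to -0.34 with the covariates (adjusted p = 0.722, limma).

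Il1a, the ligand known from epithelial and dying cells (chr2:129299609-129310186), was at the floor on 20 of 32 arrays, so its level is largely a bound. It was above the floor in 5 of 10 treated KO and 4 of 10 treated WT mice, and in 1 of 6 untreated KO and 2 of 6 untreated WT mice. The highest signals were 5.25 and 5.12, in treated WT repeats 2 and 1. Treated KO mice differed from treated WT mice by -0.19 ± 0.21 (adjusted p = 0.642, limma), or by 0.17 without those 2 mice (adjusted p = 0.408, limma).

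**Figure D3:**
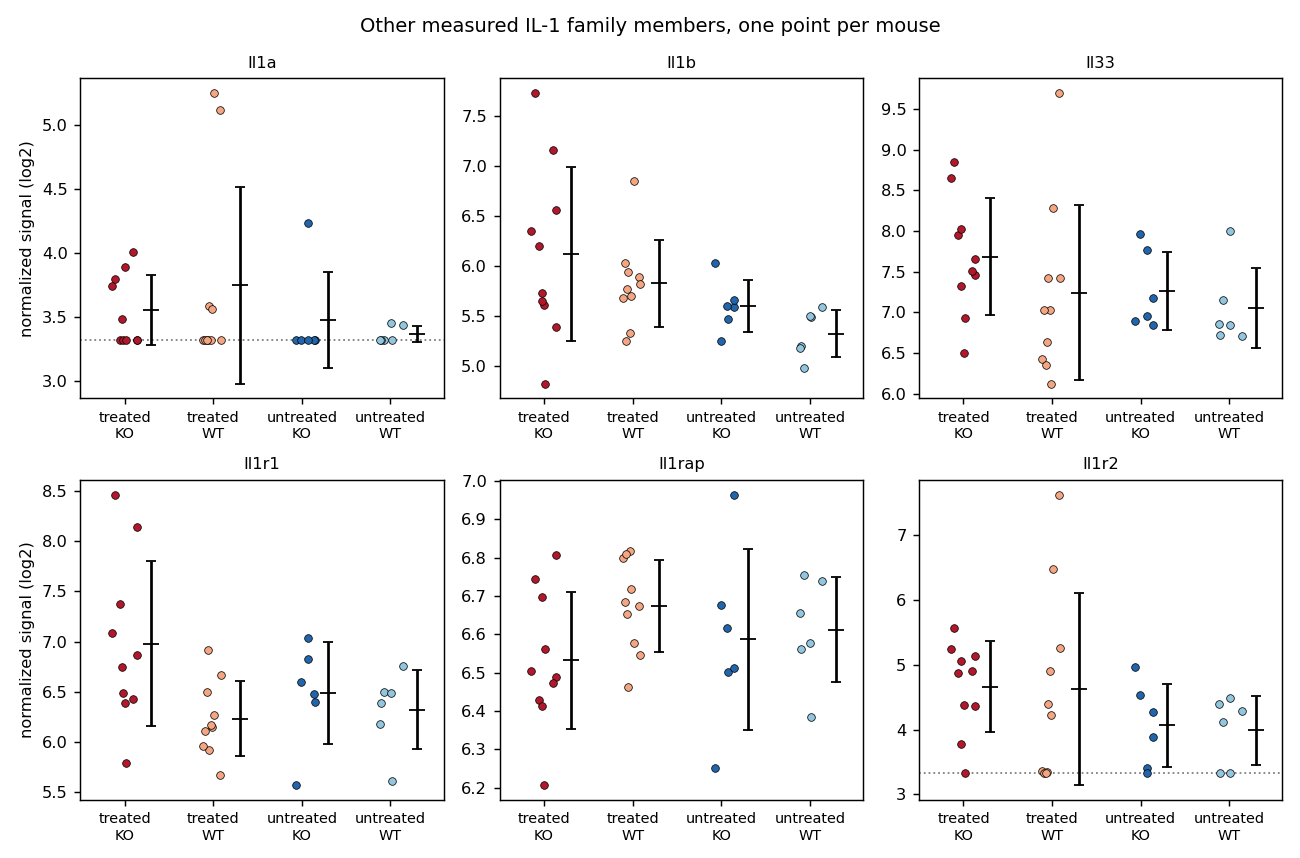
Normalized log2 signal of the 6 measured members other than Il1rn in each mouse (points) with the group mean and SD (black), for treated KO, treated WT, untreated KO and untreated WT mice, each panel on its own axis; the dotted line is the floor, a linear signal of 10. Il1b and Il1r1 spread most in treated KO mice, and the highest Il33, Il1r2 and Il1a signals are in single treated WT mice.

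The signalling receptor Il1r1 (chr1:40222480-40316201) was the member closest to the threshold after Il1rn. Its signal ran from 5.79 to 8.47 with a median of 6.81 in treated KO mice, against 5.67 to 6.92 with a median of 6.16 in treated WT mice. In untreated KO mice it ran from 5.57 to 7.04 with a median of 6.54, against 5.61 to 6.76 with a median of 6.44 in untreated WT mice. Of the treated KO mice, 9 of 10 lay above the treated WT median and 4 above the highest treated WT mouse, led by repeats 3 and 4 at 8.47 and 8.14. The difference between treated genotypes was 0.75 ± 0.25 (95% interval 0.23 to 1.27), just short of the threshold over all genes (p = 0.00651, adjusted p = 0.0506, limma). It passed under 12 of 47 other settings, with adjusted p between 0.0122 and 0.122. Among them were 7 in which a single mouse was left out: treated WT repeat 5, treated KO repeat 1, 6, 7 or 9, untreated KO repeat 2 or untreated WT repeat 1 (adjusted p = 0.0122 to 0.0486, limma). Treated mice differed from untreated mice by 0.49 ± 0.29 in KO (adjusted p = 0.264, limma) and by -0.09 ± 0.29 in WT (adjusted p = 0.964, limma). The other Il1r1 probe set was at the floor on all 32 arrays. Il1r1 followed the mean of 11 fibroblast and smooth muscle markers between mice of a group (r = 0.70, rho = 0.57, adjusted permutation p = 0.00252 and 0.0101, n = 32), and r was 0.64 without 2 mice. It also followed the macrophage marker mean (r = 0.66, rho = 0.55, adjusted permutation p = 0.00679 and 0.0148), with r 0.44 without 2 mice, and these marker means correlated with each other at r = 0.75, so the lists cannot be told apart here. The fibroblast and smooth muscle mean ran from 9.97 to 11.7 in treated KO mice and from 10.6 to 11.4 in treated WT mice, and the part of either list in the Il1r1 difference was not tested.

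The accessory chain Il1rap (chr16:26581509-26730128) gave different answers by probe set. With the representative probe set the signal ran from 6.21 to 6.81 with a median of 6.50 in treated KO mice, against 6.46 to 6.82 with a median of 6.68 in treated WT mice, a difference of -0.14 ± 0.07 (95% interval -0.29 to 0.01, adjusted p = 0.228, limma). With the only probe set of the 5 annotated to a RefSeq transcript it ran from 5.08 to 5.85 with a median of 5.42 in treated KO mice, against 4.72 to 5.28 with a median of 4.94 in treated WT mice, and 8 of 10 treated KO mice lay above the highest treated WT mouse. In untreated KO mice the RefSeq-annotated probe set ran from 4.45 to 5.32 with a median of 4.78, against 4.20 to 5.06 with a median of 4.90 in untreated WT mice. By this probe set treated KO mice were higher than treated WT mice by 0.49 ± 0.11 (adjusted p = 0.00339 over all probe sets, limma) and than untreated KO mice by 0.62 ± 0.12 (adjusted p = 0.000808, limma). Treated WT mice differed from untreated WT mice by 0.13 ± 0.12 (adjusted p = 0.735, limma). The difference of the 2 responses by this probe set, 0.50 ± 0.17, did not pass (adjusted p = 0.261, limma). Nor did it pass with any of the 32 mice left out.

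This probe set was singled out after its values were seen. Both of its calls passed when any of the 32 mice was left out. A probe set annotated to the same sequence record as the representative one differed between treated genotypes by -0.09 ± 0.13, and the remaining 2 were at the floor on 22 and 19 arrays. Within an array, the log2 ratio of the RefSeq-annotated over the representative probe set averaged -1.11 ± 0.29 in treated KO mice and -1.74 ± 0.16 in treated WT mice (SD, n = 10 each), and 9 of 10 treated KO mice lay above every treated WT mouse. In untreated mice it averaged -1.78 ± 0.47 in KO and -1.80 ± 0.36 in WT (SD, n = 6 each). Since the probe set was chosen for these differences, the ratio is a description with no test. The annotation used does not tie either to the membrane-bound or the soluble form of the protein.

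**Figure D4:**
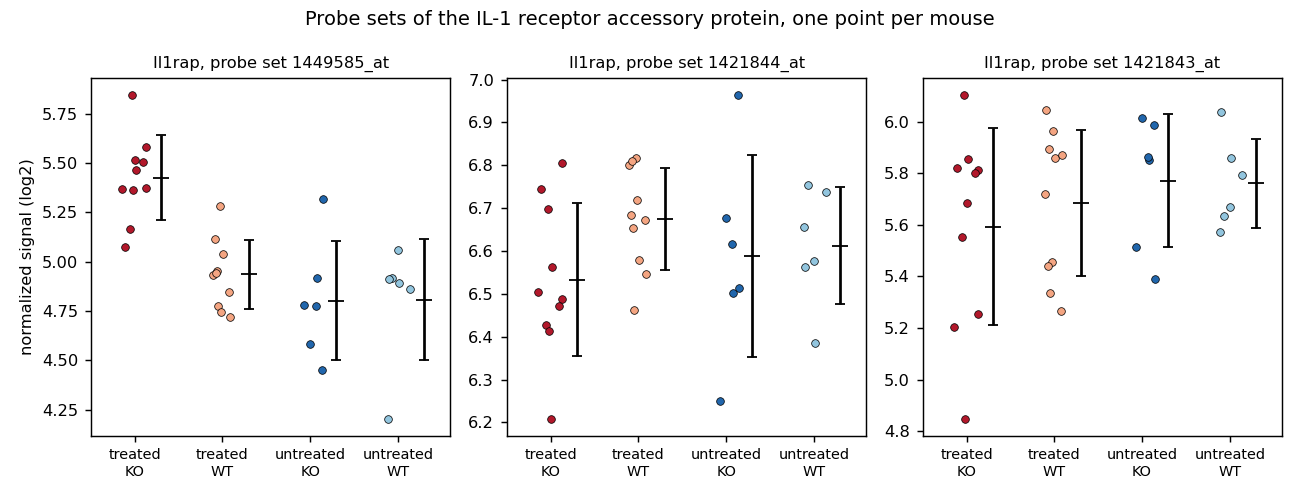
Normalized log2 signal of 3 Il1rap probe sets in each mouse (points) with the group mean and SD (black), for treated KO, treated WT, untreated KO and untreated WT mice, each panel on its own axis. In the left panel, the probe set annotated to a RefSeq transcript, treated KO mice lie at 5.08 to 5.85, against 4.72 to 5.28 in treated WT mice, and in the middle panel, the representative probe set, at 6.21 to 6.81, against 6.46 to 6.82 in treated WT mice.

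The decoy receptor Il1r2 (chr1:40084692-40125230) was at the floor on 6 of 32 arrays and spread widely in treated WT mice. Its signal ran from the floor to 5.56 with a median of 4.89 in treated KO mice, against the floor to 7.63 with a median of 4.31 in treated WT mice. In untreated KO mice it ran from the floor to 4.96 with a median of 4.08, against the floor to 4.49 with a median of 4.20 in untreated WT mice. Treated WT repeats 1 and 2 were again the highest, at 7.63 and 6.49. The difference between treated genotypes was 0.04 ± 0.44 (95% interval -0.85 to 0.93, adjusted p = 1, limma), or 0.65 without those 2 mice (adjusted p = 0.225, limma). Treated mice differed from untreated mice by 0.60 ± 0.50 in KO (adjusted p = 0.462, limma) and by 0.63 ± 0.50 in WT (adjusted p = 0.62, limma). The WT difference was 0.03 without treated WT repeats 1 and 2 (adjusted p = 1, limma) and -0.20 with the squamous and skeletal muscle covariates (adjusted p = 0.918, limma).

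Il33 and Il1r2 varied together from mouse to mouse. After removing group means, their r was 0.78 and rho 0.69 over 32 mice (permutation tests, adjusted p = 3e-04 and 0.00285 over 15 pairs of members), and r was 0.63 without the 2 mice farthest from the median. Il1b with Il1r2 had an r of 0.47 and a rho of 0.50 (adjusted permutation p = 0.0232 and 0.0404), or an r of 0.39 without 2 mice. The other 13 pairs had adjusted p of at least 0.066 for r. Both Il33 and Il1r2 followed the squamous marker mean, Il33 with r = 0.69 and rho = 0.58 (adjusted permutation p = 9e-04 and 0.0101) and Il1r2 with r = 0.74 and rho = 0.65 (adjusted permutation p = 0.00084 and 0.0042). Without 2 mice these r were 0.54 and 0.65. Both also followed the neutrophil marker mean (r = 0.71 and 0.72), which itself correlated with the squamous mean at r = 0.81, so the marker lists cannot be told apart here.

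**Figure D5:**
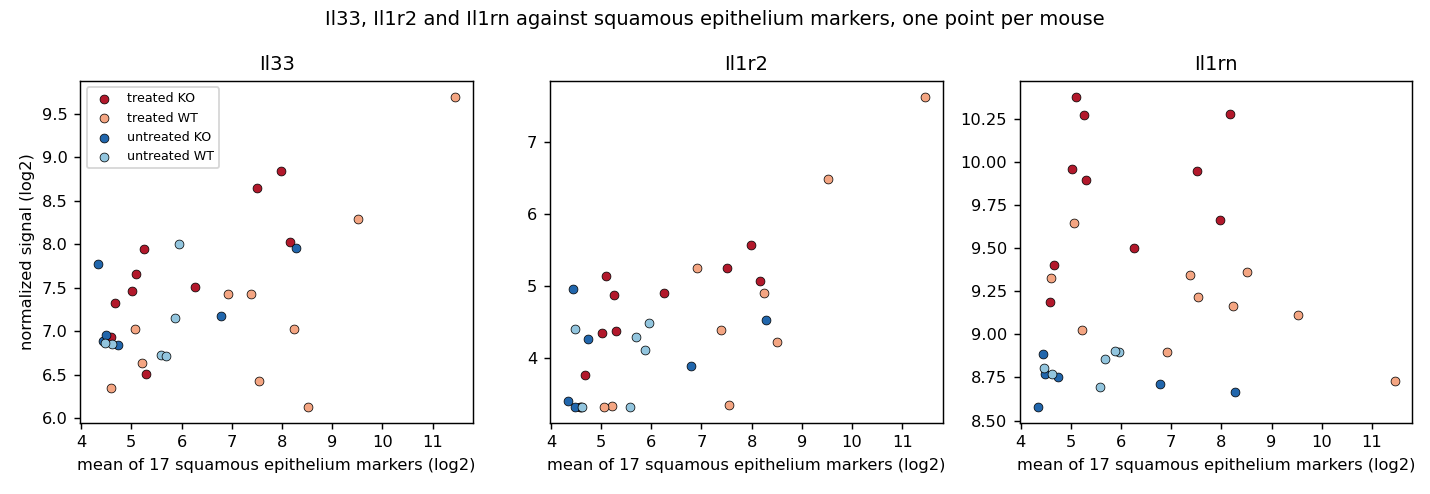
Normalized log2 signal of Il33, Il1r2 and Il1rn (y axes) against the mean log2 signal of 17 squamous epithelium markers in each of the 32 mice, coloured by group. The 2 treated WT mice with marker means of 11.5 and 9.52 have the highest Il33 and Il1r2 signals of the treated WT mice, and Il1rn signals of 8.73 and 9.11.

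The genes whose mouse-to-mouse variation was most like each member were named by rank of r among 14522 genes, after removing group means, as a description of these 32 mice. For Il1rn they were Tspan8, a tetraspanin (r = 0.76), Capns1, the small calpain subunit (r = 0.74), and Plek2, a pleckstrin family member (r = 0.72). For Il1b they were Cxcl2, a neutrophil chemokine (r = 0.84), Mmp13, a collagenase (r = 0.77), and Ifitm1, an interferon-induced membrane protein (r = 0.75). For Il33 they were the zinc transporter Slc39a6 (r = 0.88), the actin-bundling protein Pls3 (r = 0.85) and the secreted signal Wnt4 (r = 0.84). For Il1r1 they were Pros1, encoding protein S (r = 0.84), the collagen-modifying enzyme Plod2 (r = 0.80) and Chsy3, a chondroitin synthase (r = 0.79). For Il1r2 they were Serpinb11 (r = 0.83), Zfp185 (r = 0.83) and Nebl (r = 0.82), and for Il1rap Sgca (r = 0.67), Mfap4 (r = 0.63) and Plekhf1 (r = 0.62). Without the 2 mice farthest from the median these 18 r lay between 0.53 and 0.81.

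Other genes of the pathway were read from lists. Of 13 other IL-1 family ligands and receptors, 0 were called by limma between treated KO and treated WT mice, against 12.8% of all genes, and 0 had an unadjusted p under 0.05. Il18, a family cytokine of the epithelium, differed there by -0.06 ± 0.09 (adjusted p = 0.738, limma). Between treated and untreated KO mice, where 18.7% of all genes were called, 2 of 13 rose, a share near that of all genes: Il18bp, the secreted inhibitor of IL-18, by 1.23 ± 0.37 (adjusted p = 0.0191, limma), and Il18 by 0.42 ± 0.10 (adjusted p = 0.00448, limma). In WT mice, where 1.84% of all genes were called, 0 of 13 were called by limma between treated and untreated, with 3 at an unadjusted p under 0.05.

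Of 16 measured genes that cleave or release IL-1 cytokines, 4 were higher and 0 lower in treated KO than treated WT mice, where 12.8% of all genes were called, with a list median of 0.11. They were the pore-forming gasdermin Gsdmd (0.63 ± 0.16, adjusted p = 0.0072, limma), the caspase Casp8 (0.55 ± 0.11, adjusted p = 0.00192, limma), and Capn1 (0.42 ± 0.12, adjusted p = 0.0193, limma) and Capn2 (0.33 ± 0.09, adjusted p = 0.0103, limma) of the calpains, proteases that process IL-1α. Between treated and untreated KO mice 6 rose and 0 fell, against 18.7% of all genes called, among them Nlrp3, an inflammasome sensor (0.84 ± 0.24, adjusted p = 0.0133, limma), while Casp1, the protease that cleaves IL-1β, differed by -0.02 ± 0.11 (adjusted p = 0.972, limma). The brightest of the list that was not called, the inflammasome adaptor Pycard, differed by -0.11 ± 0.10 between treated genotypes.

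Of 20 measured genes of IL-1 receptor signalling, 4 were higher and 3 lower in treated KO than treated WT mice, against 12.8% of all genes called, with a list median of 0.04. Higher were the receptor kinases Irak1 (0.49 ± 0.13, adjusted p = 0.0127, limma) and Irak2 (0.31 ± 0.07, adjusted p = 0.00427, limma), with Tollip and Rela. Lower were Myd88, the ubiquitin ligase Peli1 (-0.34 ± 0.06, adjusted p = 0.00086, limma) and Tab2. The brightest that was not called, Ube2n, differed by -0.01 ± 0.06. Between untreated KO and untreated WT mice the only called gene of the list was Myd88 itself.

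Of 30 measured genes known as IL-1 induced in various cells, 5 were higher and 1 lower in treated KO than treated WT mice, against 12.8% of all genes called, with a list median of 0.33. Higher were the matrix proteases Mmp3 (1.82 ± 0.41, adjusted p = 0.00371, limma) and Mmp13 (1.49 ± 0.47, adjusted p = 0.0318, limma), the cytokine Il11 (1.77 ± 0.36, adjusted p = 0.00195, limma), the prostaglandin synthase Ptgs2 (1.12 ± 0.35, adjusted p = 0.0303, limma) and Hif1a. Lower was Nfkbia, which encodes the NF-κB inhibitor IκBα (-0.53 ± 0.13, adjusted p = 0.0063, limma). Between treated and untreated KO mice 14 of 30 rose and 0 fell, against 18.7% of all genes called, led by the chemokine Cxcl5 (2.53 ± 0.51, adjusted p = 0.000941, limma) and the feedback inhibitor Socs3 (2.31 ± 0.53, adjusted p = 0.00248, limma). In WT mice, where 1.84% of all genes were called, 1 of 30 rose, again Cxcl5 (1.96 ± 0.51, adjusted p = 0.0405, limma). The difference of the 2 responses was called by limma for 0 of the 30, against 0.055% of all genes, with 4 at an unadjusted p under 0.05.

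Of 13 measured genes of IL-33 responsive cells, 1 was called between treated KO and treated WT mice, against 12.8% of all genes, so the share is not above that of all genes. It was Il9 (0.38 ± 0.11, adjusted p = 0.0247, limma), which was at the floor on 26 of 32 arrays. Between treated and untreated KO mice 1 of 13 was called, against 18.7% of all genes: Klrg1, a marker of some innate lymphoid and T cells, was lower in treated mice (-0.61 ± 0.17, adjusted p = 0.0113, limma). The type 2 cytokines Il13 and Il5 were at the floor on 32 and 28 arrays. Of 11 mast cell markers, 4 were called higher and 0 lower in treated KO than treated WT mice, against 12.8% of all genes called. They were the proteases Mcpt1 (1.65, adjusted p = 0.0175, limma) and Mcpt2 (1.63, adjusted p = 0.00491, limma), with Mcpt4 and Fcer1a. Mcpt1 and Mcpt2 were at the floor on 10 and 5 of 32 arrays, and Mcpt4 and Fcer1a on 21 each. Called or not, 8 of the 11 had a higher mean and 3 a lower one, among these the brightest, Kit (-0.21, adjusted p = 0.316, limma). The mast cell marker mean ran from 4.46 to 6.02 in treated KO mice against 4.45 to 4.73 in treated WT mice. The part of the mast cell markers in the Il9 difference was not tested.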

How the data were processed

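The samples were distal colon RNA of 32 mice, 1 array each, grouped by the sample titles. The authors deposited log2 signals per probe set, 1 column per mouse; the summarising software is not given in the sources used here. The deposited values showed equal 2% trimmed means (150.9 to 151.3 linear units) and a floor of 10 linear units, which held 18.7% to 23.9% of probe sets on an array.

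From these, the log2 signals were quantile normalized, 64 control probe sets were left out, and each of 18193 genes was represented by its brightest probe set with 1 symbol; 34958 probe sets had 1 symbol, 932 several and 9211 none. The 4 group means of all 32 mice were fitted in limma 3.58.1 (R 4.3.3) with lmFit and eBayes, two-sided, and p-values were adjusted over all genes by Benjamini-Hochberg, with a threshold of 0.05; adjusted p for single probe sets is over all probe sets. On simulated data the fit recovered 97% of 2-fold changes for treated KO minus treated WT, 88% for untreated KO minus untreated WT, 91% for treated minus untreated KO, 93% for treated minus untreated WT and 86% for the difference of responses. Members, lists and tests were chosen with earlier results of these data known. Named genes were the members, the 3 most similar genes of each member detected on enough arrays, up to 4 called genes of each list with its brightest uncalled gene. Marker genes, Il5, Il13, Casp1, Il18, the Il1rap probe set and the genes named without values were named after their values were seen. The labels call the arrays biological repeats and give no batch or pairing. Same-numbered repeats of treated KO and treated WT mice correlated at r = -0.17 to 0.24 about their group means (1 of 10 over 0.1). Those of treated and untreated KO mice correlated at r = -0.09 to 0.34 (1 of 6 over 0.1). The main fit therefore used no pairing, but these r cannot show whether mice of the same number shared a batch.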

Additional observations from a re-analysis of the deposited data

Results flagged for a closer look

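A single mouse stood apart from the rest of its group in 3 of 28 sets of member values by Dixon's criterion. Chance gives about 1 in 20 where values are continuous, which sets with several mice at the floor (Il1a, Il1r2) are not. Il1b in treated WT repeat 2 was 6.86, with the next mouse at 6.03. Il33 in untreated WT repeat 1 was 8.00, with the next at 7.15. Il1a in untreated KO repeat 1 was 4.24, with the other 5 mice at the floor, so that any single mouse above the floor would have stood apart.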

How the results depend on the processing

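Il1rn passed under all 47 alternatives between treated KO and treated WT mice (differences 0.58 to 0.78) and between treated and untreated KO mice (1.03 to 1.25). The count of called members between treated genotypes was 2, not 1, under median centring, without genes below the 40th percentile (5 members tested), with a trended and robust prior and with an Xist covariate, where Il1r1 was added, and with squamous and skeletal muscle covariates or without treated WT repeats 1 and 2, where Il33 was added. With the replicate block, fitted although the labels do not say that the numbers pair mice, it was also 2, through Il1r1. With Il1rap read by its RefSeq-annotated probe set, an alternative added after seeing the data, the count was 2 between treated genotypes (Il1rap 0.49) and 2 between treated and untreated KO mice (0.62). With array weights, Il1rn was called between treated and untreated WT mice (count 1; 0.39, adjusted p = 0.0182, limma) and for the difference of responses (count 1; 0.75, adjusted p = 0.028, limma). Leaving out single mice gave counts of 1 to 2 between treated genotypes and 0 to 0 between untreated genotypes. Counts were 0 to 0 between treated and untreated WT mice, and 1 to 1 between treated and untreated KO mice. For the difference of responses they were 0 to 1. The count of 1 came only from leaving out treated KO repeat 9 (Il1rn, adjusted p = 0.0294, limma). The causes were not tested.

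Over all genes, array weights raised the calls between treated and untreated WT mice to 1459, against 335, and those for the difference of responses to 257, against 10; a 3'/5' control covariate gave 75 between treated and untreated WT mice. Fitting only the compared groups gave 1338, 891 and 1919 calls, against 2331, 335 and 3406. Median centring made 65.8% of the calls between treated and untreated KO mice higher, against 46.4%, and the values as deposited 39.1%. With 6 untreated mice a group, responses are measured less precisely than treated genotype differences. Il1a, mostly at the floor, cannot show small changes.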
